A study of Mus musculus with 36 samples.

Results

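The genes of the proteasome were followed in blood RNA of sickle cell mice. Transcript rows of the count table were matched to mouse symbols, the row with the highest total count was kept for each gene, and every gene named Psma, Psmb, Psmc, Psmd, Psme, Psmf or Psmg with a number was taken. This gave 48 genes of 16812. Psmc3ip, Psme2b and Psme3ip1 begin with the same letters and were left out, the first and the last because they name other proteins and Psme2b because it is a copy of Psme2. Reads shared with that copy could be split in the authors' counting, so values of Psme2 are uncertain. By role they were 8 subunits of the 20S alpha ring, 7 constitutive and 4 inducible or tissue-restricted subunits of the beta ring, 4 chaperones of 20S assembly, 6 ATPases and 11 other subunits of the 19S particle, 3 chaperones of 19S assembly, 4 activators, and the single inhibitor Psmf1.

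The study asked how intermittent dosing with MIR29B acts on gene expression in Townes mice, whose globin genes are replaced by human ones so that they develop sickle cell disease. MIR29B is a cholesterol-modified microRNA of the miR-29 family. All 36 libraries came from peripheral blood of this strain, and the labels name erythrocytes as the cell type. There were 12 groups of 3 libraries. The agent was MIR29B or a scrambled control, each given at 2 mg/kg in some mice and 3 mg/kg in others, through a mini-osmotic pump. Blood came from week 0, week 2 and week 4, and the groups cross agent, dose and week. RNA was extracted with TRIzol and alpha- and beta-globin mRNA was depleted with the GLOBINclear kit in all groups. The labels do not say whether week 0 blood preceded the first dose, nor whether libraries came from separate animals, so p-values measure the spread between libraries, which may be in part technical. The labels state no pairing of replicates.

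The proteasome is the protease that degrades proteins tagged with ubiquitin. Its barrel, the 20S core, stacks a pair of outer alpha rings on a pair of inner beta rings, and 3 of the constitutive beta subunits, Psmb5, Psmb6 and Psmb7, carry the active sites. The 19S particle caps the barrel: its ATPases (Psmc genes) unfold substrates and its other subunits (Psmd genes) hold and strip the ubiquitin chain. Activators of the PA28 and PA200 families (Psme genes) can cap the barrel in its place, PI31 (Psmf1) inhibits the core in vitro and serves as an adaptor of proteasomes, and Psmg chaperones assemble the core. Interferon replaces the 3 active subunits by Psmb8, Psmb9 and Psmb10 in the immunoproteasome. Young red cells lose most of their proteins and organelles while they mature, and ubiquitin-dependent degradation by the proteasome is among the routes by which they do so.

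The sequence of the microRNA is shown because its seed defines which members could be direct targets. In mouse, per RefSeq on GRCm38.p6, it lies at 2 loci on chromosomes 1 and 6, and its seed, bases 2 to 8 from the 5′ end, is in capitals.
mmu-miR-29b-3p: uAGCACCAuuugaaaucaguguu
A match to this seed was searched in the annotated 3′ UTRs of the 47 members tested, as TGGTGCTA or its 7-base parts TGGTGCT and GGTGCTA. Of these members 3 held one, 6.4%, against 17.0% of 11385 tested genes with a 3′ UTR. An 8-base match was found in 1 member, 2.13%, against 2.78%. The sites are shown 5′ to 3′ with the match in capitals.
Psma3 (3′ UTR bases 446 to 453): tttaaattctTGGTGCTAttctcgtgtg
Psmb7 (3′ UTR bases 5 to 11): tgaaTGGTGCTgtgggtggtt
Psme4 (3′ UTR bases 589 to 595): ctggagttttTGGTGCTgagtaagagc
These genes encode an alpha ring subunit, the trypsin-like active subunit and the activator PA200. A seed match is a description of the sequence and not evidence of binding. Their values with MIR29B are given with those of the other members below.

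Library totals ranged from 10.7e6 to 45.65e6 counts, and the 48 members held 27150 to 115400 counts of a library. The red cell gene Alas2, the first enzyme of heme synthesis, stood at no less than 58920 CPM, where CPM is the TMM-scaled count in parts per 1e6 of the library. Defining markers of other blood cells were also counted: the neutrophil gene S100a9 at 62.9 to 1078 CPM, the B cell gene Cd79a at 6.76 to 238 CPM, the platelet gene Pf4 at 22.7 to 544 CPM and the T cell gene Cd3e at 2.38 to 12.1 CPM. The NK cell gene Ncr1 had no count in 3 libraries. In such a mixed sample fewer cells of a type and less RNA per cell cannot be told apart. Libraries also differed in the lengths of the transcripts they held. A length index was computed for each library, the slope of log2 level, relative to each gene's mean, on log2 transcript length over 11816 genes that are not members. A low index marks a library rich in short transcripts.

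One library stood apart before any comparison was made. It is replicate 1 of the scrambled group at week 2 and 3 mg/kg. It had the lowest length index of all, -0.598, and the highest platelet sum, 1343 CPM against 165 to 582 CPM over the 8 platelet markers. Its ribosomal protein sum was 147147 CPM, against a median of 60434 CPM and a range of 28951 to 169325 CPM in the other 35 libraries. The highest sum was in the MIR29B group of week 0 at 2 mg/kg, whose replicate 2 had a length index of -0.447. The library that stood apart was the highest of 36 libraries for 30 of the 47 tested members, and for 12.4% of all 11953 genes tested. Most results for members that rest on it are given below with and without it. Calls and fold changes of lists outside the family, and correlations with the length index and marker sums, include it throughout.

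In level the family was dominated by 3 genes that are not part of its core barrel. Levels of different genes are compared here as CPM per kilobase of transcript. Psme3, the activator PA28 gamma, had the highest median, 679 CPM per kb, with a range of 235 to 1025 over libraries. Psmd4, the ubiquitin receptor of the 19S particle, followed with a median of 533 CPM per kb. Psmf1 was next with 58.2 CPM per kb. Among 11863 tested genes with a known length these medians ranked 125, 150 and 480. The 3 genes together held between 49.3% and 87.2% of the summed CPM of all members, with a median of 79.5%, and Psme3 alone a median of 53.5%.

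The remaining members had lower medians, spread from 0.166 to 36.8 CPM per kb among those tested. The highest of these members was the beta ring subunit Psmb4 with 36.8 CPM per kb. It was followed by the 19S subunit Psmd8 with 34.9, the activator Psme1 with 34.4 and the alpha ring subunit Psma5 with 32.6, and their ranges over libraries overlapped. The range of Psmb4, 15 to 287, also overlapped that of Psmf1, 13.6 to 110. By role, the member medians ran from 10.9 to 36.8 CPM per kb in the constitutive beta ring and from 3.8 to 16.9 in the 19S ATPases. Apart from Psma8 the alpha ring lay between 3.3 and 32.6. The 20S assembly chaperones Psmg1, Psmg2, Psmg3 and Psmg4 were among the lowest, with medians of 0.594 to 2.05 CPM per kb, and Psmg3 had no count in 4 libraries and Psmg1 in 1. Psma8, the alpha subunit known from testis, had a median of 0.166 CPM per kb and no count in 5 libraries. Psmb11, the beta subunit known from thymic epithelium, had 8 counts in all, in 2 libraries, and was not tested, so 47 members passed the filter on low counts.

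**Figure D1:**
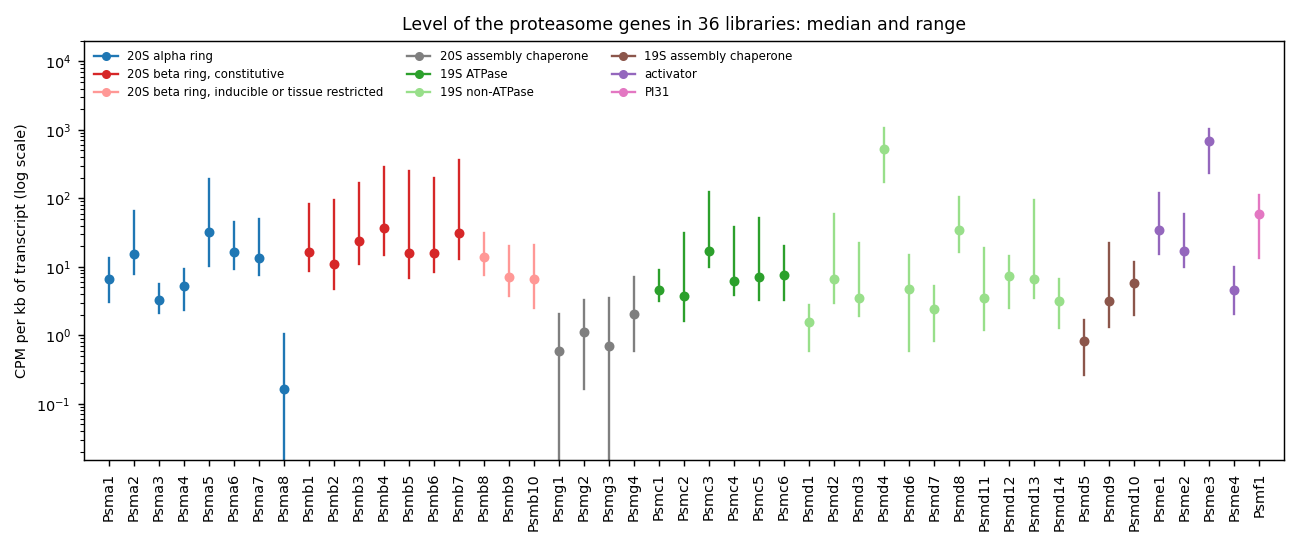
Level of each member in CPM per kilobase of transcript (log axis), grouped by role. Points are medians of 36 libraries and lines run from the lowest to the highest library; lines that reach the bottom of the panel belong to genes with no count in a library, and Psmb11 is not drawn because its median was 0. Psme3 (679), Psmd4 (533) and Psmf1 (58.2) stand above the rest.

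The constitutive beta subunits varied together across libraries, and many other members varied with them. These correlations are descriptions over 36 libraries that share their make-up, on log2(CPM + 0.5), with no test. Psmb5 and Psmb6 had r = 0.96 and Psmb5 and Psmd13, a 19S subunit, r = 0.94, and without the library that stood apart these were 0.93 and 0.87. The median r of the 47 members with Psmb5 was 0.67, or 0.52 without that library, and some members of the core did not follow it: Psma4 had 0.09, Psma1 0.15 and Psmd1, the 19S scaffold, 0.38. Of the 3 dominant genes Psmd4 had r = 0.67 with Psmb5 and -0.65 with the length index, Psme3 had 0.23 with Psmb5 and Psmf1 0.16. Without that library the 3 values with Psmb5 were 0.63, 0.33 and 0.3. Psmf1 had r = 0.71 with Psme3 and 0.6 with Psmd4. The summed level of 12 erythroid markers had r = 0.56 with Psmf1, 0.63 with Psme3 and 0.35 with Psmd4, but -0.36 with Psmb5 and -0.31 with Psmb6. The immunoproteasome subunits Psmb8, Psmb9 and Psmb10 had the highest r of all members with the summed B cell markers, at 0.55, 0.45 and 0.46. The length index had a negative r with 45 of the 47 members, 95.7%, against 39.9% of all genes tested. The median r was -0.58 over members and 0.14 over all genes tested, and Psme1 had -0.91. A part of library make-up in the members' differences was not tested beyond the fits that carry the index as a covariate.

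In the library that stood apart, all 7 constitutive beta subunits reached the highest value of the series. Psmb5, the chymotrypsin-like subunit, stood at 223 CPM there, from 3758 counts, and at 6.23 to 34.3 CPM in the other 35 libraries. Psmb7, the trypsin-like subunit, stood at 414 CPM against 15 to 77.8 CPM. Psmb6, the caspase-like subunit, stood at 157 CPM against 6.6 to 32.7 CPM. Over the median of the other libraries these were 15.8, 11.6 and 12.4 times higher, and the 7 ratios of the constitutive beta ring ran from 5.17 to 15.8 with a median of 8.81. Against the next highest library these catalytic genes were 6.51, 5.32 and 4.8 times higher.

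The excess was uneven over the rest of the complex. All 6 ATPases were highest there too, with ratios of 2 (Psmc1) to 8.33 (Psmc2). Of 11 other 19S subunits 10 were highest there, led by Psmd13 (185 CPM, 14 times the median of the others) and the scaffold Psmd2 (173 CPM, 8.78 times), whereas Psmd12 was at 1.42 times. The 19S chaperone Psmd9 was at 7.35 times and its fellow chaperones Psmd5 and Psmd10 at 1.04 and 1.32. In the alpha ring 4 of 8 subunits were highest there, with Psma5 at 6.04 and Psma4 at 1.17. The 3 immunoproteasome subunits were not among the high genes: Psmb8 was at 0.985, Psmb9 at 1.36 and Psmb10 at 1.42 times the median of the others. Psme3 (0.995), Psme4 (0.782) and Psmf1 (0.807) were not high either, and Psmg1 and Psma8 had no count in that library.

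More than 5 times the median of the other libraries was reached by 17 of the 47 members, 36.2%, and by 572 of all 11953 tested genes, 4.79%. More than 2 times the next highest library was reached by 14 members and by 2.6% of all genes. Partners of the proteasome were high in the same library: the core maturation factor Pomp at 81 CPM, 6.58 times the median of the others, the unfoldase Vcp at 647 CPM, 5.68 times, its cofactor Ubxn1 at 396 CPM, 10.4 times, and the ubiquitin-activating enzyme Uba1 at 368 CPM, 7.4 times. Of 16 genes of the interferon response 1 was highest there, and the median ratio of that list was 0.698. The neutrophil sum there, 2448 CPM, lay within the 183 to 3109 CPM of the other libraries, and the erythroid sum, 96499 CPM, lay below the lowest of the others, 107053 CPM. Their part in the excess was not tested.

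**Figure D2:**
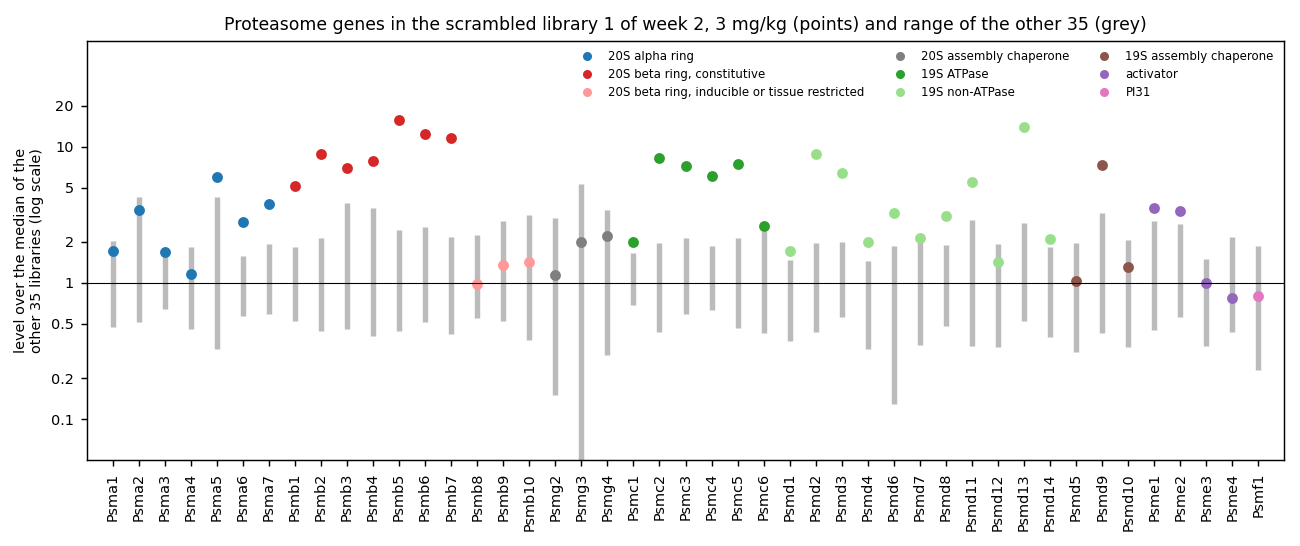
Level of each member in replicate 1 of the scrambled group at week 2 and 3 mg/kg over the median of the other 35 libraries (points, log axis, coloured by role), with the range of the other 35 on the same scale in grey. The constitutive beta ring lies at 5.17 to 15.8 times the median, and Psmb8, Psmb9, Psmb10, Psme3, Psme4 and Psmf1 lie within the grey range; Psmg1 and Psma8, with no count there, and Psmb11 are not drawn.

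The promoters of Psmb5, Psmb6 and Psmd9 are shown because these genes moved together across libraries and hold the core of the antioxidant response element, TGACNNNGC, the letters bound by NFE2L1 and NFE2L2, the factors known to raise proteasome genes when the proteasome is impaired. Each runs from 250 bases before to 50 after the start, 5′ to 3′ along the gene, per RefSeq on GRCm38.p6, with the match in capitals.
Psmb5 (chr14:54617946-54618245, minus strand): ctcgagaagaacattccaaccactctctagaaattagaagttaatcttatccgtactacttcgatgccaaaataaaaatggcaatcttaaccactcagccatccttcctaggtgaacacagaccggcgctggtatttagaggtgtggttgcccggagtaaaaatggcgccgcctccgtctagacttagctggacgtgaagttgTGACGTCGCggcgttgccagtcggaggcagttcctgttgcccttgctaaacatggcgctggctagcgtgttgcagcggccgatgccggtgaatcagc
Psmb6 (chr11:70525107-70525406, plus strand): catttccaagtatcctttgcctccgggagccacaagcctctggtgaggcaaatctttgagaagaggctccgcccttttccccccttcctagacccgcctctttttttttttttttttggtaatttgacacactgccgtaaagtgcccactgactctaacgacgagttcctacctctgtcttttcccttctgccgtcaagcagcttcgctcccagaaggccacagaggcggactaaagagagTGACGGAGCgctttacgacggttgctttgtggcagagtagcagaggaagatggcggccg
Psmd9 (chr5:123227940-123228239, plus strand): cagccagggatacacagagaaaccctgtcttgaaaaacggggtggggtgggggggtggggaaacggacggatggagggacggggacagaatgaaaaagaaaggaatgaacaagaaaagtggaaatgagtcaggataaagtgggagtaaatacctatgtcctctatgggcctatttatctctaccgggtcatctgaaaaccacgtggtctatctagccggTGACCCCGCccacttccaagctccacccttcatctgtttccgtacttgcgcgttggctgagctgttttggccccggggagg
The match starts at base -47 in Psmb5, -9 in Psmb6 and -31 in Psmd9, counted from the start of the gene. Searched on both strands, the motif was in 6 of 43 promoters of 40 members, 14.0%, against 12.4% of 32851 promoters of the table and 14.5% of those of tested genes. The other 3 were Psmc6, Psmd12 and Psme4, which followed Psmb5 less closely across libraries, with r of 0.55, 0.28 and 0.2. Some members that followed Psmb5 closely, such as Psmd13 (r = 0.94) and Psmb3 (r = 0.92), held no match. CCAAT, the letters bound by NF-Y, was in 32.6% of the members' promoters and 37.4% of all. The members' shares were near those of all promoters, and a match is a description of the letters alone.

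In the scrambled arm, week 2 against week 0, 5 members rose and none fell. They were the 19S subunits Psmd13 and Psmd3, the active beta subunits Psmb5 and Psmb6, and the alpha subunit Psma7. Calls were made with edgeR's quasi-likelihood test at a Benjamini-Hochberg adjusted p under 0.05 over all genes tested, here and in every comparison below. The 5 are 10.6% of the 47 members tested, against 2.11% of all tested genes called higher and 1.1% called lower. In no member were the groups of 6 separate, against 0.502% of all genes higher and 0.41% lower. Their rise rested on the library that stood apart: without it none of the 47 was called, and 0.846% of 12290 genes were called higher.

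Psmd13 lay at 7.39, 9.8 and 14.9 CPM (lowest, median and highest of 6 libraries) at week 0 and at 12.1, 17.6 and 185 CPM at week 2. The groups overlapped, and the next highest week 2 library was at 36.4 CPM. Its log2 fold change was 1.89 ± 0.45 (SE), with an edgeR adjusted p of 0.0208, and 0.77 ± 0.34 with an adjusted p of 0.255 without that library.

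Psmb5 lay at 7.66, 12.5 and 19.7 CPM at week 0 and at 9.73, 20.1 and 223 CPM at week 2, with overlap. Its log2 fold change of 1.69 ± 0.45 had an edgeR adjusted p of 0.037, and it was 0.46 with an adjusted p of 0.522 without that library. Psmb6 went from a median of 11.6 CPM to one of 17.6 CPM, with a highest value of 157 CPM. Its log2 fold change of 1.6 ± 0.45 had an edgeR adjusted p of 0.0434, and it was 0.5 with 0.517 without the library. For both genes most of the difference between weeks came from 1 library of 6.

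Psmd3 and Psma7 had smaller folds that depended less on it. Psmd3 lay at 4.17, 5.96 and 11.1 CPM at week 0 and at 5.29, 10.5 and 47.5 CPM at week 2, a log2 fold change of 1.1 ± 0.3 with an edgeR adjusted p of 0.0386. Psma7 lay at 7.68, 9.99 and 13.4 CPM and at 11.3, 15.8 and 45 CPM, a log2 fold change of 0.99 ± 0.28 with an adjusted p of 0.0456. Without the library they were 0.59 with an adjusted p of 0.256 and 0.66 with 0.221.

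The other members mostly had positive log2 fold changes without passing the test. Of 47, 41 were above 0, with a median of 0.49 against -0.01 over all genes tested, and without the library 29 were above 0, with a median of 0.14. With all libraries 76 of 76 ribosomal protein genes were above 0 too, with a median of 0.75 and 2 called. All 7 constitutive beta subunits had an unadjusted p under 0.05, as did 17 members in all, 36.2%, against 11.5% of all tested genes higher at that limit. At that limit 1 member was lower, against 8.86%. Without the library 3 members were higher and 1 lower, against 7.88% and 7.87%. The active subunit Psmb7 had a log2 fold change of 1.41 ± 0.45 with an edgeR adjusted p of 0.0725, and 0.18 with 0.596 without the library. With all libraries the immunoproteasome subunits had 0.2 ± 0.25 (Psmb8), 0.4 ± 0.31 (Psmb9) and 0.49 ± 0.38 (Psmb10). Psmf1 had -0.37 ± 0.23 with an adjusted p of 0.367.

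The number of calls in this comparison moved with single libraries and with library make-up. DESeq2 called 10 members, against 9.35% of the genes it tested, and edgeR with the length index as a covariate called 0, against 3.95%. With the index the log2 fold changes were smaller, at 0.72 for Psmd13, 0.47 for Psmb5 and 0.31 for Psmb6. Without the libraries over 5% ribosomal RNA edgeR called 0 with fold changes that stayed at 1.89, 1.7 and 1.61. Leaving out 1 library gave 1 call for each of the 3 scrambled libraries of week 0 at 2 mg/kg. It gave 0 for replicates 1 and 2 of week 0 at 3 mg/kg, for replicate 3 of week 2 at 2 mg/kg and for the library that stood apart. It gave 10 for replicate 1 of week 2 at 2 mg/kg and 9 and 13 for replicates 2 and 3 of week 2 at 3 mg/kg. Markers moved in the same comparison: the neutrophil genes S100a8 and S100a9 rose by log2 fold changes of 2.03 ± 0.43 and 1.64 ± 0.38, with edgeR adjusted p of 0.0108 and 0.0171. Of 15 neutrophil markers 7 rose, and their sum had medians of 678 CPM (204 to 1279) at week 0 and 2243 CPM (924 to 3109) at week 2. Of 12 erythroid markers 1 fell, and their part in the members' values was not tested.

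**Figure D3:**
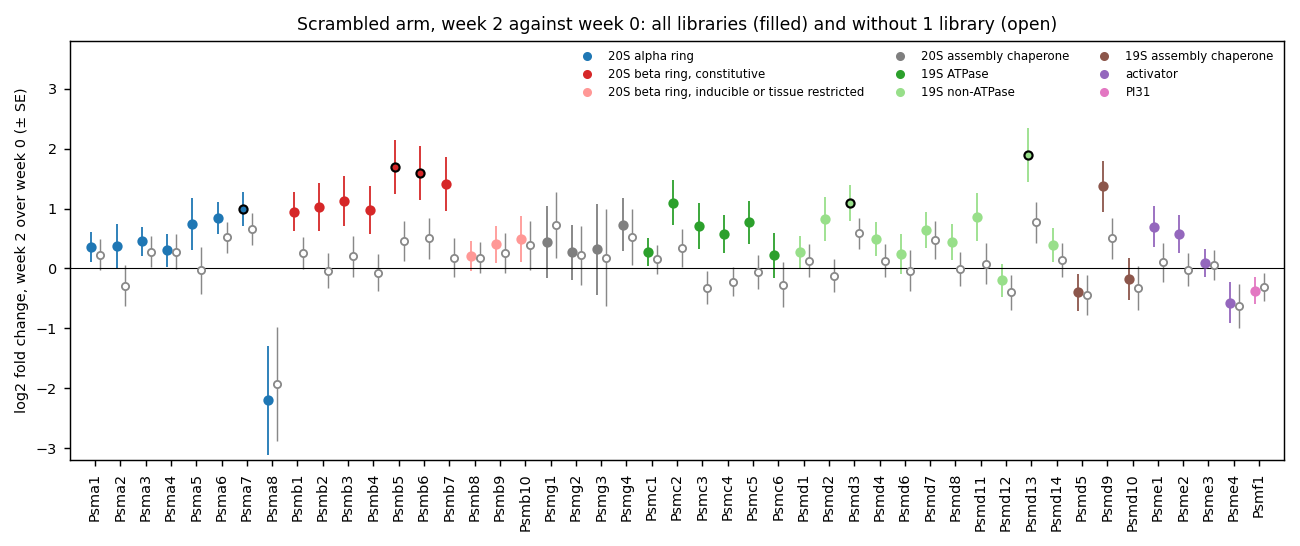
Log2 fold change of each tested member in the scrambled arm, week 2 over week 0, with its standard error. Filled points use all libraries, with a black edge for the 5 called members, and open points leave out replicate 1 of week 2 at 3 mg/kg. The constitutive beta ring lies at 0.95 to 1.69 with all libraries, and no member was called without that library.

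With MIR29B, week 2 against week 0, Psmf1 was the 1 member called, and it was higher. This is 2.13% of the members tested, against 3.45% of all tested genes called higher, a share near the background, and 1.99% were called lower. At an unadjusted p under 0.05, 2 members were higher and 1 lower, against 10.4% and 9.98%. Psmf1 lay at 111, 197 and 309 CPM at week 0 and at 283, 341 and 418 CPM at week 2, and the groups overlapped only through 1 library of week 0 at 309 CPM. The doses differed. At 3 mg/kg it went from 111, 134 and 174 CPM to 359, 411 and 418 CPM. At 2 mg/kg it stood at 220, 231 and 309 CPM and then at 283, 298 and 323 CPM, with overlap. The change within a single dose was not tested. Averaged over doses, the log2 fold change of Psmf1 was 0.88 ± 0.23 with an edgeR adjusted p of 0.0214. Psme3 lay at 1178, 1515 and 1782 CPM at week 0 and at 2132, 2402 and 2663 CPM at week 2, groups that did not overlap, as was true of 3.14% of all tested genes in that direction and 1.72% in the other. Its log2 fold change was 0.65 ± 0.24, and with an edgeR adjusted p of 0.0987 it did not pass the test.

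The call of Psmf1 was near the threshold. Over 21 other settings its log2 fold change stayed between 0.81 and 0.97, and its adjusted p ran from 0.00311 with DESeq2, which called 9.59% of the genes it tested, to 0.159 without the libraries that held over 5% ribosomal RNA. It lost the call without any filter on low counts (adjusted p of 0.0827). Leaving out MIR29B replicates 2 or 3 of week 0 at 2 mg/kg gave adjusted p of 0.0577 and 0.0703. Leaving out replicate 1 of week 0 at 3 mg/kg gave 0.0611, and replicate 3 of week 2 at 3 mg/kg gave 0.0604. Psmf1 has 2 transcript rows in the table, and the lesser one held 61.2% to 97.7% of the counts of the greater, with a fold change of 0.84 and an adjusted p of 0.0333. In this arm the summed erythroid markers went from 108393 to 176996 CPM at week 0 to 165456 to 206479 CPM at week 2, with 2 of 12 higher and 1 lower by the test. The neutrophil markers went from 183 to 625 CPM to 806 to 1775 CPM, with 9 of 15 higher, and the part of either in the result was not tested.

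Between the arms at week 2, Psmf1 had the smallest p of the members and did not pass the test. At 2 mg/kg it stood at 283, 298 and 323 CPM with MIR29B and at 51.7, 101 and 146 CPM with the scrambled control, without overlap. In the scrambled group of that dose it had stood higher at week 0, at 181, 188 and 304 CPM. At 3 mg/kg it stood at 359, 411 and 418 CPM against 180, 201 and 316 CPM, again without overlap. Over both doses the scrambled library at 316 CPM reached into the MIR29B range. The log2 fold change over both doses was 1.18 ± 0.23, an unadjusted p of 1.41e-05 and an edgeR adjusted p of 0.0844. At 2 mg/kg it was 1.6 ± 0.33 with an adjusted p of 0.193, and at 3 mg/kg 0.77 ± 0.33 with 0.653.

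DESeq2 called Psmf1 over both doses (adjusted p of 0.000231) and at 2 mg/kg (0.000559), and so did edgeR with the length index as a covariate (0.0167 and 0.0275). DESeq2 called 1.15% and 1.05% of the genes it tested in these comparisons, edgeR with the index 0.284% and 0.134%, and edgeR without it 0.0% of 11953. Leaving out replicate 2 of the scrambled group at 2 mg/kg also brought a call, with edgeR adjusted p of 0.0157 over both doses and 0.0391 at 2 mg/kg. No other single library brought a call when left out. Without MIR29B replicate 2 at 2 mg/kg the edgeR adjusted p was 0.288 over both doses and 0.548 at 2 mg/kg. That library and MIR29B replicate 3 of the same group held 15.05% and 9.15% ribosomal RNA. Without the libraries over 5% ribosomal RNA the log2 fold changes were 1.18 and 1.56. That fit kept only replicate 1 of this MIR29B group. At week 0 the arms differed in Psmf1 by -0.07 ± 0.23 and at week 4 by -0.17 ± 0.23. The change from week 0 to week 2 differed between the arms by 1.25 ± 0.33 with an adjusted p of 0.838, which did not pass the test. This comparison shares its week 2 libraries with those above.

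Psme3 went the same way with a smaller difference. Over both doses at week 2 it stood at 2132, 2402 and 2663 CPM with MIR29B and at 627, 1793 and 2019 CPM with the scrambled control, and the groups did not overlap, as was true of 0.259% of all tested genes in that direction and 0.117% in the other. The log2 fold change was 0.59 ± 0.24 with an edgeR adjusted p of 0.399. Psmd4 stood at 755, 850 and 1018 CPM against 232, 582 and 1397 CPM, with overlap. The lowest value of all 3 genes came from replicate 1 of the scrambled group at 2 mg/kg. The erythroid sum at week 2 was 165456 to 206479 CPM with MIR29B and 96499 to 184682 CPM with the control. All 10 monocyte markers had fold changes below 0, with a median of -1.01, as had 14 of 15 neutrophil markers, with a median of -0.64, and 0 of either were called. The part of these cells in the differences was not tested.

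**Figure D4:**
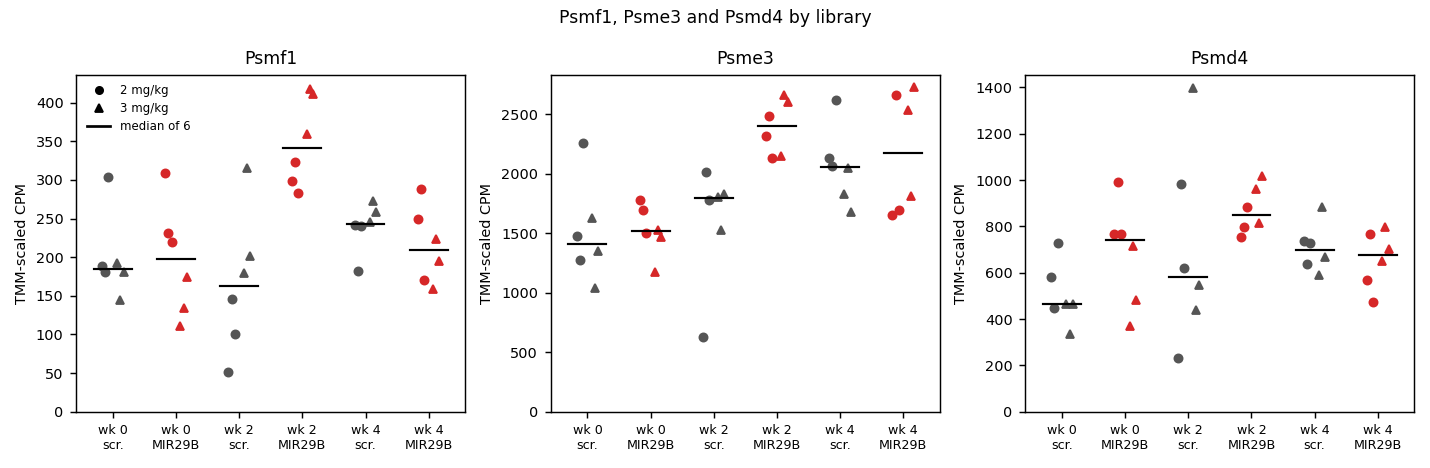
TMM-scaled CPM of Psmf1, Psme3 and Psmd4 in each library by week and arm; circles are 2 mg/kg, triangles 3 mg/kg, and bars the median of 6. At week 2 the 6 MIR29B libraries of Psmf1 (283 to 418 CPM) lie above all scrambled libraries but 1 (316 CPM), and those of Psme3 (2132 to 2663 CPM) lie above all of them.

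No member passed the test between the arms at week 2. With edgeR 0 members were called at either dose or over both, and 0.0% of all tested genes were. At an unadjusted p under 0.05, 2 members were higher and 5 lower over both doses, 4.26% and 10.6% of the members, against 3.87% and 5.97% of all genes. Without the library that stood apart the balance turned to 10 higher and 1 lower, against 7.98% and 6.27%. The alpha subunit Psma1 was next after Psmf1, at 3.72, 6.14 and 7.64 CPM with MIR29B and 7.24, 9.24 and 13.8 CPM with the control. The fitted log2 fold change was -0.72 ± 0.25 with an edgeR adjusted p of 0.333. At 2 mg/kg 1 member was higher and 0 lower at that limit, against 3.92% and 4.3% of all genes, and Psme3, the second by p, had 0.65 ± 0.33 with an adjusted p of 0.626. The ATPases Psmc3, Psmc4 and Psmc5 were with Psmf1 and Psme3 the 5 members higher in all MIR29B libraries at that dose, 10.6%, against 5.65% of all genes, and 0 were lower against 4.77%.

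At 3 mg/kg the library that stood apart set the direction. Psmd3 and Psmb5 had the smallest p, with log2 fold changes of -1.32 ± 0.42 and -1.97 ± 0.65 and an edgeR adjusted p of 0.633 for both. At an unadjusted p under 0.05, 10 members were lower, 21.3%, against 3.88% of all genes, and 1 higher against 3.2%; DESeq2 called 0. Without that library 0 were lower and 7 higher, against 3.59% and 6.92% of all genes. Psmd3 then had -0.25 and Psmb5 0.54. The members' median log2 fold change was -0.52 with all libraries and 0.54 without that one, and over both doses it was -0.29 and 0.36. Medians over all genes tested were -0.14 and -0.09, and without the library -0.05 and -0.03. The sign of the family's difference between the arms at week 2 thus turned on 1 library of 6.

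None of the 3 members with a miR-29 seed match in the 3′ UTR was called between the arms. At week 2 and 3 mg/kg Psma3, with the 8-base match, stood at 6.02, 7.28 and 9.21 CPM with MIR29B and at 9.36, 9.64 and 15.9 CPM with the control, without overlap, as was true in that direction of 4.34% of tested genes. With Psma1 it was 1 of 2 such members, and 3 were higher in all MIR29B libraries against 4.38%. At 2 mg/kg it stood at 6.9 to 12.5 CPM against 9.83 to 15 CPM, with overlap, and over both doses its log2 fold change was -0.56 ± 0.26 with an edgeR adjusted p of 0.465. Psmb7 had -0.67 ± 0.44 over both doses with an adjusted p of 0.648, and 0.59 ± 0.34 with 0.435 without the library that stood apart. Its median at week 2 was 43.4 CPM in the MIR29B arm, above the 33.7 CPM of the scrambled arm. Psme4 stood at 31.8, 33.5 and 50.8 CPM with MIR29B at 3 mg/kg and at 15.7, 22.7 and 23.8 CPM with the control, the higher side being that of the microRNA.

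The catalytic pairs of the constitutive and the immunoproteasome differed in balance. Per kilobase, Psmb8 was near its counterpart Psmb5: the log2 ratio of the levels had a median of -0.21 over 36 libraries and was above 0 in 14. Psmb9 was below Psmb6 in all 36, with a median of -1.37, and Psmb10 was below Psmb7 in all 36, with a median of -1.96. In the library that stood apart the 3 ratios were -4.2, -4.36 and -5.26, the lowest of the series. In the other 35 libraries the lowest were -1.48, -2.63 and -3.55.

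The inducible subunits were not called in any comparison. Psmb8 lay at 12.3 to 50.3 CPM over all libraries, Psmb9 at 5.04 to 27.3 CPM and Psmb10 at 3.29 to 27.3 CPM. The highest value of all 3 came from replicate 3 of the MIR29B group at week 2 and 2 mg/kg, 1 of the 3 libraries with over 5% ribosomal RNA. Between the arms at week 2 the log2 fold changes were 0.01 ± 0.25 for Psmb8, -0.05 ± 0.31 for Psmb9 and -0.42 ± 0.39 for Psmb10, with edgeR adjusted p of 1, 0.98 and 0.766. Those of Psmb5, Psmb6 and Psmb7 were -0.84 ± 0.44, -0.72 ± 0.44 and -0.67 ± 0.44, with 0.552, 0.627 and 0.648. Without the library that stood apart all 3 turned to 0.43 ± 0.33, 0.42 ± 0.36 and 0.59 ± 0.34, with 0.596, 0.629 and 0.435, and those of the inducible subunits were 0.06, 0.13 and -0.28.

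**Figure D5:**
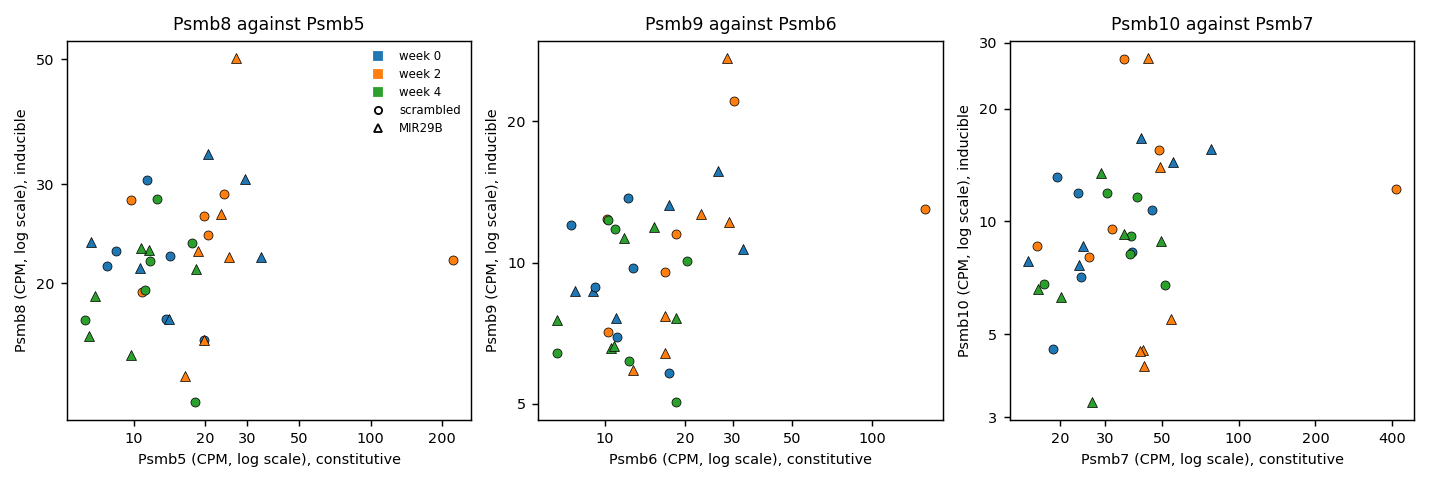
CPM of each inducible catalytic subunit (vertical) against its constitutive counterpart (horizontal), both on log axes, in 36 libraries; colour gives the week, and circles are scrambled and triangles MIR29B. The single point at the right of each panel is the library that stood apart, at 223 CPM of Psmb5, 157 CPM of Psmb6 and 414 CPM of Psmb7, where the inducible subunits lie within the range of the others.

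At week 4 no member was called between the arms or against week 0. With MIR29B, week 4 against week 0, 42 of 47 log2 fold changes were below 0, with a median of -0.49 against -0.01 over all genes tested. The alpha subunit Psma5 lay at 17.9, 57.4 and 165 CPM at week 0 and at 12.7, 27 and 53.1 CPM at week 4, with overlap, a log2 fold change of -1.32 ± 0.44 with an edgeR adjusted p of 0.0924. The 19S subunit Psmd7 lay at 2.98, 4.13 and 6.23 CPM and at 1.33, 2.33 and 3.86 CPM, a log2 fold change of -0.83 ± 0.31 with 0.134. At an unadjusted p under 0.05, 6 members were lower, 12.8%, against 6.92% of all genes, and 1 was higher against 10.2%. With edgeR 0.443% of all genes were called lower and 2.64% higher, and DESeq2 called 1 member, Psma5, with an adjusted p of 0.0318, and 6.6% of the genes it tested. Without MIR29B replicate 1 of week 0 at 2 mg/kg edgeR called Psma5 too, at -1.52 with an adjusted p of 0.0498. No other single library brought this call when left out. Replicate 2 of week 0 stood at 165 CPM at 2 mg/kg and at 88.5 CPM at 3 mg/kg. Without the former the log2 fold change was -0.98 with an edgeR adjusted p of 0.346, and without the latter -0.92 with 0.337. With the length index as a covariate it was -0.72 with 0.272. The index had a median of -0.002 at week 0 and 0.144 at week 4, 71 of 76 ribosomal protein genes were below 0 with a median of -0.39, and 6 of 15 neutrophil markers rose. The part of these in the members' shift was not tested beyond the fit with the index.

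In the scrambled arm, week 4 against week 0, the median of the members was 0.04. Psma6, an alpha subunit, lay at 9.81, 13.1 and 16.9 CPM at week 0 and at 11.3, 19.8 and 27.2 CPM at week 4, a log2 fold change of 0.57 ± 0.27 with an edgeR adjusted p of 0.499. Psme3 had 0.46 ± 0.24 with 0.537. Here 1 member was higher at an unadjusted p under 0.05 and 0 lower, against 4.71% and 5.06% of all genes, DESeq2 called 0 members, and edgeR called 0.36% of all genes higher and 0.1% lower. The change to week 4 differed between the arms in no member by the test: Psma5 and Psmb4 had differences of -1.36 ± 0.61 and -1.14 ± 0.57, both with an adjusted p of 0.78. At that unadjusted limit 0 members were higher and 1 lower, against 3.23% and 2.8% of all genes, and DESeq2 called 0. Both arms' changes share the fit but not the libraries, and the changes to week 2 and to week 4 share week 0.

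Between the arms at week 4 the 2 mg/kg groups were often separate without a call. The MIR29B libraries all lay below the scrambled ones for 13 of 47 members, 27.7%, against 6.24% of all tested genes, and above them for 2 members against 7.42%. The 13 were Psma2, Psma5, Psma6, Psma7, the beta subunits Psmb1, Psmb3, Psmb4, Psmb5, Psmb6, Psmb7 and Psmb10, the ATPase Psmc6 and the activator Psme2. Psmb4 stood at 17.8, 22.6 and 23.4 CPM with MIR29B and at 41.8, 43.5 and 50.2 CPM with the control. Psmc6 stood at 7.38, 14.6 and 14.8 CPM against 24.6, 28.1 and 33.5 CPM, a log2 fold change of -1.23 ± 0.55, and Psma5 at 12.7, 19.1 and 22.1 CPM against 31.9, 43.4 and 61.4 CPM, a log2 fold change of -1.34 ± 0.62, both with an edgeR adjusted p of 1.

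The length index did not overlap between these groups either. It was 0.143, 0.248 and 0.329 with MIR29B and -0.066, 0.084 and 0.117 with the control, and the ribosomal protein sum was 34516 to 53700 CPM against 59640 to 72759 CPM. The part of transcript length in the 13 genes was not tested beyond the fit with the index as a covariate. Over 15 other settings, that fit among them, the log2 fold change of Psma5 stayed between -1.54 and -0.95. That of Psmc6 stayed between -1.39 and -0.96. These 2 were named for their small p, and the fit with the index is not given for the others of the 13. Across libraries r with the length index was -0.64 for Psma5 and -0.36 for Psmc6. For the others of the 13 it ran from -0.86 (Psmb3 and Psme2) to -0.67 (Psmb10). At 3 mg/kg, where the index overlapped, 2 members were lower in all MIR29B libraries and 2 higher, against 4.68% and 4.42% of all genes. There the 2 smallest p were those of the chaperones Psmd5, with a log2 fold change of 0.99 ± 0.44, and Psmg2, with -1.28 ± 0.67, both with an edgeR adjusted p of 1. Over both doses at week 4 they were Psmd7, at -0.5 ± 0.31, and Psmg4, at -0.6 ± 0.44, both with an adjusted p of 1; by its lesser transcript row Psmg4 had 0.6.

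The arms were also compared at week 0, for which the labels do not say whether dosing had begun. The median of the members was 0.29 higher in the MIR29B arm on the log2 scale, with 41 of 47 above 0, against a median of -0.05 over all genes tested. The chaperone Psmd9 lay at 3.88, 10.5 and 25.9 CPM in the MIR29B arm and at 4.06, 5.74 and 7.11 CPM in the scrambled arm, a log2 fold change of 0.95 ± 0.41 with an edgeR adjusted p of 0.687. Psma5 had 0.84 ± 0.44 with 0.725. Over 21 other settings the log2 fold changes ran from 0.42 to 1.11 for Psmd9 and from 0.27 to 1.05 for Psma5. At 2 mg/kg 4 members, Psmb2, Psmd4, Psmd9 and Psme1, were higher in all MIR29B libraries, 8.51%, against 3.9% of all genes, and 0 lower against 5.91%. The smallest p there were those of Psmd9 (1.23 ± 0.59) and Psme1 (1.01 ± 0.5), both with an adjusted p of 0.876. Replicate 2 of that MIR29B group held 25.9 CPM of Psmd9, against 10.7 and 10.2 CPM in its fellows. For Psme1 it held 107 CPM against 45.3 and 54.1 CPM. Over 15 other settings the log2 fold changes ran from 0.41 to 1.5 and from 0.24 to 1.27. At 3 mg/kg the smallest p were those of Psmd11 (1.07 ± 0.56) and Psmc3 (0.81 ± 0.54), both with an adjusted p of 1. The length index at week 0 ran from -0.447 to 0.298 in the MIR29B arm and from 0.012 to 0.299 in the scrambled arm. Of 76 ribosomal protein genes 75 were above 0 in this comparison over both doses, with a median of 0.62, and all 15 neutrophil markers were below 0, with a median of -1.22 and 0 called. Their part in the members' shift was not tested.

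No member was called in these comparisons of the arms at week 0 and week 4 by edgeR or by DESeq2, and edgeR called 0.0% of all genes. At an unadjusted p under 0.05 there was 1 member higher at week 0 over both doses, against 2.33% of all genes higher and 4.79% lower. There was 1 at 2 mg/kg, against 1.92% and 2.7%, and 0 at 3 mg/kg, against 0.87% and 2.53%, with 0 members lower in each. At week 4 there were 0 in either direction over both doses, against 1.57% and 1.06% of all genes. There were 2 lower and 0 higher at 2 mg/kg, against 0.828% and 1.42%, and 1 higher and 0 lower at 3 mg/kg, against 1.65% and 1.55%.

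The change from week 0 to week 2 differed between the arms in no member by edgeR or DESeq2. At an unadjusted p under 0.05, 8 members had a lower change with MIR29B, 17.0%, against 2.87% of all genes, and 1 a higher one against 2.74%. Of all genes edgeR called 0.0%. Psma1 was second to Psmf1 with -0.91 ± 0.36 and an edgeR adjusted p of 0.859. The members' median difference was -0.62 with all libraries and -0.16 without the library that stood apart, when 1 member was lower and 1 higher at that limit, against 2.09% and 3.62% of all genes.

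Genes that work with the proteasome were counted from lists outside the family. Of 16 partners, 2 rose from week 0 to week 2 with MIR29B: the ubiquitin receptor Adrm1, which docks on the 19S particle, with a log2 fold change of 1.02 ± 0.29 and an edgeR adjusted p of 0.0314, and Zfand2a, a stress-induced 19S-binding protein, with 1.15 ± 0.32 and 0.0284. At week 4 with MIR29B Zfand2a was the 1 partner called, with 1.69 ± 0.32. Of all genes 3.45% were called higher with MIR29B at week 2 and 2.64% at week 4. In the scrambled arm 0 of 16 were called at either week, and 0 in any comparison of the arms. At an unadjusted p under 0.05, 4 were higher in that arm at week 2 and 1 at week 4, against 11.5% and 4.71% of all genes. Of 8 genes of the p97 unfoldase 0 were called in any comparison. At the unadjusted limit 4 were higher in the scrambled arm at week 2, against 11.5% of all genes. In the library that stood apart 6 of the 8 reached their highest value.

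Of 9 genes in the transcriptional control of the proteasome, the small Maf genes Maff and Mafk were the ones called. Maff rose from week 0 in both arms. It lay at 0.443 to 1.48 CPM at week 0, at 3.8 to 12.9 CPM at week 2 and at 2.85 to 18.4 CPM at week 4 in the scrambled arm, without overlap with week 0. In the MIR29B arm it lay at 0 to 0.384 CPM, then at 3.01 to 9.09 and 5.84 to 25.4 CPM. Mafk rose with MIR29B by 1.18 ± 0.28 at week 2 (edgeR adjusted p of 0.00978) and by 1.05 ± 0.28 at week 4 (0.0277). Nfe2l1, the factor best known for proteasome genes, was not called in any comparison. Its log2 fold changes from week 0 to week 2 were 0.12 ± 0.31 in the scrambled arm and 0.39 ± 0.31 with MIR29B, with adjusted p of 0.856 and 0.526.

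Interferon induces Psmb8, Psmb9 and Psmb10 as well as the genes of the next list. Of 16 interferon response genes, 3 fell in the scrambled arm at week 2: Rsad2 by a log2 fold change of -1.29 ± 0.3, Ifi47 by -0.99 ± 0.25 and Ifit2 by -1.83 ± 0.48, with edgeR adjusted p of 0.0171, 0.0295 and 0.034. With MIR29B Ifi47 and Ifit2 fell at week 2, by -1.47 ± 0.26 and -1.92 ± 0.48, and Ifi47 at week 4. Of all genes 1.1% were called lower in the scrambled arm at week 2. With MIR29B the shares called lower were 1.99% at week 2 and 0.443% at week 4. The list's medians at week 2 were -0.85 and -0.56, against 0.4 and 0.0 for the inducible beta subunits, whose 3 members did not pass the test. Of 10 genes of class I peptide loading, H2-D1 rose from week 0 to week 2 with MIR29B by 0.87 ± 0.25, with an edgeR adjusted p of 0.0323. The others were not called, and 3.45% of all genes were called higher in that comparison.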

How the data were processed

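RNA of peripheral blood from 36 libraries was sequenced by the submitters. The values used are raw counts per RefSeq transcript, as deposited by the authors in 1 table of 25856 rows; HISAT2 2.0.5, featureCounts 1.5.0-p3 and the build GRCm38 are named in the submitters' processing notes. Every count is even, and the annotation release, strand setting and treatment of mates are not given in the sources used here. Symbols came from the RefSeq and GENCODE tables, 74 rows stayed without a symbol, and the row with the highest total was kept per gene. Ribosomal RNA, at 1.39% to 15.05% of a library, was summed over 4 rows. How reads shared by isoforms were counted is not given either.

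Genes passing edgeR's filter (minimum count 10, minimum total 15) were fitted over all 12 groups with TMM scaling, in R 4.3.3 with edgeR 4.0.16, and tested with the quasi-likelihood F test in 15 comparisons. The biological coefficient of variation within groups was 0.5. SE is the log2 fold change over the root of F. Week comparisons average both doses. Alternatives were DESeq2 1.42.0, its size factors in edgeR, no filter, halved counts, other rows per gene, the length index as a covariate, no libraries over 5% ribosomal RNA, a replicate block, and leaving out each library; using the lowest row of each member was added after seeing the data. The script was tested on simulated counts in which 200 genes were changed. Of genes changed 2-fold it recovered 2 in the scrambled arm, week 2 against week 0, and 0 between the arms at week 2 and 2 mg/kg. Of genes changed 4-fold it recovered 129 and 70. The absence of a call thus says little about changes near 2-fold.

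Members and lists were chosen with earlier results of these data known. Named are the called members of a comparison, up to 8 by smallest p, otherwise the 2 with the smallest p, and always Psmb5, Psmb6, Psmb7, Psmb8, Psmb9, Psmb10 and Psmf1; list genes are given as counts with up to 3 called examples. Mature microRNAs and promoters were read from RefSeq tables, and 3′ UTRs from GENCODE transcripts.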

Additional observations from a re-analysis of the deposited data

Results flagged for a closer look

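In 150 groups of 6 libraries, 25 genes in 6 combinations of arm and week, 23 held a library far from the other 5, with a gap to the nearest that took more of the group's range than Dixon's limit for 6 values. That limit is set to be passed in about 1 in 20 groups of independent values from a normal distribution. Genes named for a small p in these data are among the 25, and all share the same libraries. The 23 therefore cannot be set against that rate. Of the 23, 12 came from replicate 1 of the scrambled group at week 2 and 3 mg/kg. In it Psmb4 stood at 340 CPM (next library 68), Psmb5 at 223 (23.9), Psmb6 at 157 (30.3) and Psmb7 at 414 (48.8). Psma5 stood at 235 CPM (69.5), Psma6 at 47.8 (26.1) and Psma7 at 45 (22.9). Among 19S genes Psmc3 stood at 200 CPM (29.9), Psmd11 at 54.3 (13.2), Psmd13 at 185 (36.4), Psmd3 at 47.5 (14.9) and Psmd9 at 57.9 (14.2).

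Replicate 3 of the MIR29B group at week 2 and 2 mg/kg was high for Psmb8 (50.3 CPM, next 26.6), Psmb9 (27.3, next 12.7) and the chaperone Psmg4 (3.89, next 1.54); 9.15% of its counts were ribosomal RNA. Replicate 3 of the MIR29B group at week 4 and 3 mg/kg was high for Psmc3 (36.2 CPM, next 23.8) and Psmd11 (16.9, next 10.1). Psmd5 was low in scrambled replicate 3 of week 0 at 3 mg/kg (2.54 CPM, next 4.65) and high in scrambled replicate 1 of week 4 at 2 mg/kg (6 CPM, next 3.33). Psme3 was low in scrambled replicate 1 of week 2 at 2 mg/kg (627 CPM, next 1527). Psmf1 was high in scrambled replicate 3 of week 0 at 2 mg/kg (304 CPM, next 192) and low in scrambled replicate 2 of week 4 at 2 mg/kg (182 CPM, next 240). Psmg2 was high in scrambled replicate 3 of week 2 at 2 mg/kg (3.44 CPM, next 1.84).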

How the results depend on the processing

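Over settings other than leaving out a library, the number of members called stayed within 1.5 times in 120 cases, was greater in 11 and smaller in 4. Most of the 120 had 0 calls in the main fit and 0 in the other setting, so they say little about stability. In the scrambled arm, week 2 against week 0, the 5 calls became 12 without a filter on low counts (5.37% of all genes), 10 with DESeq2, 0 with the length index and 0 without libraries over 5% ribosomal RNA (1.1% of all genes), and leaving out 1 library gave 0 to 13. With MIR29B in the same weeks the 1 call became 0 without a filter (4.62% of all genes), 0 without those libraries (1.26%) and 2 with the index (12.1%), when Psme3 was added, and leaving out 1 library gave 0 to 1. Between the arms at week 2 the 0 calls became 1 without a filter (0.553% of all genes), with the index and with DESeq2, 1 at 2 mg/kg with the index and with DESeq2, and 1 at 3 mg/kg without a filter; leaving out 1 library gave 0 to 1 over both doses and at 2 mg/kg. With MIR29B at week 4 against week 0 the 0 calls became 2 without a filter (4.37% of all genes) and 1 with DESeq2, and 0 to 1 without 1 library. With the replicate block the counts were 5 and 1 at week 2 against week 0, as without it, and 0 elsewhere. Deviations of same-numbered libraries had a mean correlation of 0.04 (-0.54 to 0.47 over 198 pairs, 78 above 0.1), so the numbers were not taken to pair libraries.

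With each member's lowest row, a setting chosen after seeing the data, Psmf1 had 0.03 between the arms at week 0 and -0.02 at week 4 and 2 mg/kg, and Psmg4 had 0.6 at week 4. Leaving out 1 library gave Psmf1 -0.13 to 0.1 and -0.1 to 0.28 in these comparisons, and Psmb5 -2.49 to 0.54 at week 2 and 3 mg/kg. The median of the members was 0.36 between the arms at week 2 and 0.54 at 3 mg/kg without the library that stood apart. With the index it was -0.09 and 0.02 for the arm differences in the change to week 2 and to week 4. The causes were not tested. Depth limits what can be said of Psma8 and the Psmg chaperones, which had 0 to 50 counts a library.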
